A study of Rattus norvegicus with 8 samples.

Results

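Zfp genes encode zinc finger proteins, in which short loops of the chain are folded around a zinc ion. Most carry rows of C2H2 fingers that read DNA. Many add a KRAB domain, which recruits Trim28 and the histone methyltransferase Setdb1 and so silences the bound site, or a SCAN or BTB domain through which such proteins pair. Others bind RNA: the CCCH proteins of the Zfp36 family attach to AU-rich stretches of mRNAs and bring in the CCR4-NOT complex, which shortens the poly(A) tail. The group was defined here by symbol, as every row of the expression table named Zfp followed by a number, whose control libraries averaged 1 FPKM or more. FPKM are sequenced fragments relative to gene length and library size. Of 278 such rows among 21017 rows in all, 198 reached that level and are called the Zfp genes below.

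The cells were neonatal cardiomyocytes, heart muscle cells isolated from newborn SD (Sprague-Dawley) rats, transfected with a small interfering RNA (siRNA) and harvested for total RNA 48 h later. One group of 4 libraries had received siNC, the control duplex, and the other group of 4 had received siECHS1. The latter is directed against Echs1, the short-chain enoyl-CoA hydratase of mitochondrial fatty acid oxidation, and no untransfected group was analysed here. The comparison asks which transcripts differ when that enzyme is lowered. The labels do not say that replicates came from separate cultures or litters, so a p-value here speaks only of the spread among these libraries, which may be technical. Libraries held 16953309 to 18237111 reads, of which 0.418% to 0.441% fell on the Zfp genes, with a median of 207 reads per gene and library. The row named Echs1 was at 38.8% of the control level in siECHS1, but it was low (1.33 and 0.516 FPKM, 138 and 55 reads in all). With a mean under 1 FPKM over all 8 libraries it was not tested. The more abundant row LOC100911186, with the same protein match, was at 51.1% (6.61 and 3.38 FPKM). All 10 cardiomyocyte markers were above the level filter, with a summed level of 8361 to 8677 FPKM in siNC and 8536 to 9374 FPKM in siECHS1. Myh6 and Tnni3 were called lower and Myh7 and Actc1 higher. The 7 fibroblast markers summed to 2795 to 2997 FPKM in siNC and 3645 to 4015 FPKM in siECHS1, 4 of them called higher (Dcn, Col3a1, Col1a1 and Postn) and 1 lower (Lum), and none was at 0. The 5 endothelial markers summed to 27.0 to 28.7 FPKM in siNC and 27.98 to 28.4 FPKM in siECHS1, the 6 macrophage markers to 20.3 to 22.3 and 19.7 to 23.3 FPKM, and the 6 smooth muscle and pericyte markers to 4298 to 4394 and 4104 to 4471 FPKM. The macrophage markers Ptprc, Adgre1 and Cd163 were below the level filter, at 0.0540, 0.0477 and 0.00342 FPKM in siNC. Within the sums above Csf1r and Tagln were called lower and Cd68 and Acta2 higher. Whether any of these differences has a part in a value below was not tested. In bulk RNA, fewer cells of a type and less RNA per cell cannot be told apart.

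The Zfp genes were transcripts of low to middle abundance. Their median level in siNC was 4.41 FPKM, with a range of 1.01 to 84.7 FPKM, against a median of 11.99 FPKM for the 11867 other coding genes above the same level. In all, 106 of them lay under 5 FPKM and 46 over 10 FPKM. They were spread over 21 chromosomes, with 40 on chromosome 1. The siNC level chose the members, so these values describe the choice. Just inside the threshold stood Zfp169, which went from 1.01 FPKM in siNC to 0.966 FPKM in siECHS1, Zfp472 (1.01 and 0.950 FPKM) and Zfp949 (1.018 and 1.028 FPKM). Just outside stood Zfp382 (0.998 and 0.922 FPKM), Zfp84 (0.965 and 0.922 FPKM) and Zfp780b-ps1 (0.909 and 1.04 FPKM). The 80 Zfp rows below the threshold had a median of 0.346 FPKM, none was at 0 in every library, and 1 reached 1 FPKM in siECHS1.

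The starts of Zfp genes were richer in G and C than those of genes in general, a property that the choice by symbol and level did not use directly. RefSeq promoters of 300 bases (250 before and 50 after the start, assembly GRCr8) could be matched by symbol to 161 Zfp rows, which gave 159 promoters. Their median G+C content was 58.3%, against 51.7% over all 33469 promoters and 55% over the coding ones. The median number of CpG pairs was 18, against 7 over all promoters and 11 over coding ones. The Sp and Kruppel-like GC box (GGGCGG) was found in 50.3% of Zfp promoters, 33.1% of all and 41.8% of coding ones, counting both strands and overlapping matches. The ETS motif (CCGGAAG) was found in 19.5%, 8.75% and 10.7%. The motif bound by Zfp143 itself (ACTACAAT) was found in 3.14%, 0.762% and 0.833%, and the YY1 motif (AAGATGGC) in 5.66%, 3.17% and 3.67%. The cyclic AMP element (TGACGTCA) was found in 1.89% of Zfp promoters, 1.83% of all and 2.10% of coding ones. The CHOP-ATF4 composite (TGATGCAA) was found in 1.89%, 0.795% and 0.728%. Each of these 1.89% shares is 3 of 159 promoters, and that of the Zfp143 motif is 5 of 159. These are letter matches and no measure of binding, the shares were compared without a test, and the other promoters were not limited to expressed genes.

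Promoters of 3 Zfp genes are shown, chosen by expression values given below and not by sequence. They are those of Zfp36l1, the most abundant, and Zfp281 and Zfp498, with the largest called rise and fall on the log2(FPKM + 1) scale. On that scale Zfp672 fell by nearly as much as Zfp498, and as a percentage of control by slightly more. Capitals mark matches to the motifs above on either strand. The Zfp36l1 window (chr6:104668641-104668940, minus strand) held none of the 6 motifs. The Zfp281 window (chr13:50647572-50647871, plus strand) held 3 GC boxes, all read on the opposite strand. The Zfp498 window (chr12:14451870-14452169, minus strand, listed by RefSeq under the symbol Zscan25) held 1 ETS motif and a pair of overlapping GC boxes.
Zfp36l1: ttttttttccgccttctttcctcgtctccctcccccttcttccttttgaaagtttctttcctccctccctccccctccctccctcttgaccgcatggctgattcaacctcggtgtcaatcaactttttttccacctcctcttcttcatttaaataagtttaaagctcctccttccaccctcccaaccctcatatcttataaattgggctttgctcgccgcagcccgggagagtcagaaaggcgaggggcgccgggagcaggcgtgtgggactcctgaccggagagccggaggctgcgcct
Zfp281: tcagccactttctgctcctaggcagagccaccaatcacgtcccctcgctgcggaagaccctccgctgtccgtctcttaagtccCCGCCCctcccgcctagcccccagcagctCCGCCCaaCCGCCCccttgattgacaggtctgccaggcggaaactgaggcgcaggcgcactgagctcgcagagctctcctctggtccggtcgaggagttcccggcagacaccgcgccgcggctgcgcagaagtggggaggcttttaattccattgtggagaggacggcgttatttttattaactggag
Zfp498: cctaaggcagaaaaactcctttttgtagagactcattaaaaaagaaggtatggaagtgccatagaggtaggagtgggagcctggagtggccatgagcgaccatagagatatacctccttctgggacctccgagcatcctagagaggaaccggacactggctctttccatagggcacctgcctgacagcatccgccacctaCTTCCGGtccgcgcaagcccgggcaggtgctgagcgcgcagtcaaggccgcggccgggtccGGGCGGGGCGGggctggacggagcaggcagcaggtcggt

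Few Zfp genes differed between siECHS1 and siNC, and those that did differed by small amounts. Of 198 Zfp genes, 194 averaged 1 FPKM or more over all 8 libraries and entered the limma test on log2(FPKM + 1); the other 4 (Zfp772, Zfp872, Zfp472 and Zfp169) did not. With an adjusted p under 0.05, adjusted over all 12616 rows tested, 14 of the 194 (7.22%) were called, 5 (2.58%) higher in siECHS1 and 9 (4.64%) lower. Among all rows tested 21.0% were called, 8.83% higher and 12.2% lower. Among the 11782 other coding genes tested 21.9% were called, 9.15% higher and 12.7% lower. In 8 Zfp genes every siECHS1 library stood above every siNC library, and in 12 every one stood below, which is 4.12% and 6.19% of those tested. The same held for 10.7% and 15.6% of the other coding genes (10.3% and 14.9% of all rows). At an unadjusted p under 0.05 there were 33 Zfp genes (17.0%), against 35.5% of the other coding genes and 34.5% of all rows. With median-of-ratios scaling the calls were 7 higher and 5 lower, and with quantile normalization 6 higher and 7 lower, so which direction held more Zfp genes depended on the scaling. Called Zfp genes numbered 4 without siECHS1 replicate 1 or 2, 6 without siNC replicate 2 or 4, 5 without siNC replicate 3, 11 without siECHS1 replicate 3 or 4 and 17 without siNC replicate 1. In each of these the share called was lower than among other coding genes, where it lay between 15.6% and 21.9%.

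**Figure D1:**
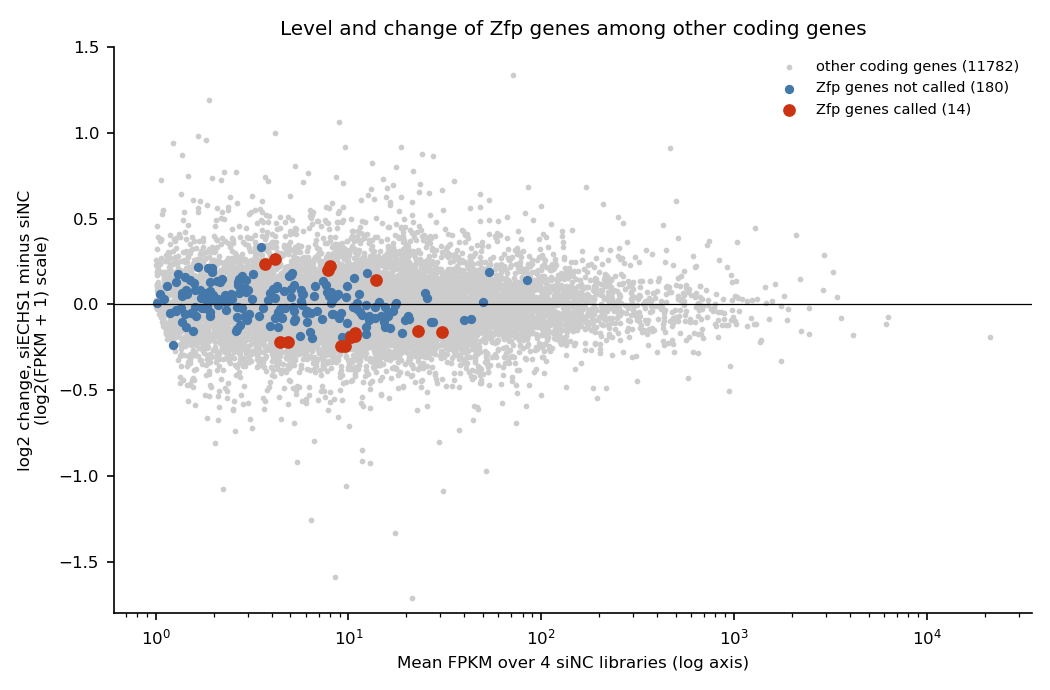
Each point is a gene, with its mean siNC level in FPKM on a log axis and its log2 change (siECHS1 minus siNC) on the log2(FPKM + 1) scale; grey points are 11782 other coding genes, blue points 180 Zfp genes that were not called and red points the 14 that were. The Zfp genes lie in a band between -0.24 and 0.33, narrower than the grey cloud.

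The changes of the Zfp genes were spread over a narrower range than those of other genes. On the log2(FPKM + 1) scale their median change was -0.0046 (95 above 0 and 99 below), it turned to 0.01 with either median-of-ratios scaling or quantile normalization, and the interquartile range was -0.07 to 0.08. The SD over genes was 0.112 for Zfp genes and 0.177 for other coding genes, whose median was -0.01. On that scale 148 of 194 Zfp genes (76.3%) stayed within 1.1-fold, against 63.6% of the other coding genes. On the same scale only 2 (1.031%), Zfp347 and Zfp281, passed 1.2-fold, against 11.1% of the other coding genes. None passed 1.5-fold, against 99 of the other coding genes (0.840%). The added 1 FPKM shrinks the changes of low genes, and the Zfp genes were lower in level than the others. As ratios of group means in FPKM more Zfp genes passed 1.2-fold, among them Zfp296 (1.23 to 0.899 FPKM) and Zfp365. Genes passing by that ratio were not counted. Zfp347, named after its values were seen, had the largest change of all Zfp genes on the log2(FPKM + 1) scale and was not called. Its siNC values were 4.37, 3.22, 3.01 and 3.45 FPKM and its siECHS1 values 5.04, 5.38, 3.15 and 5.39 FPKM. The groups overlapped because siECHS1 replicate 3 lay among the controls (log2 change 0.33, SE 0.14, adjusted p = 0.126 by limma). Summed over all Zfp genes the level was 1484 to 1545 FPKM in the siNC libraries and 1487 to 1511 FPKM in the siECHS1 libraries, so the groups overlapped.

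A smaller share of Zfp genes was called at every level of expression. Between 1 and 2 FPKM in siNC, 0 of 42 Zfp genes were called, against 7.33% of other coding genes. Between 2 and 5 FPKM it was 4 of 60 (6.67%) against 12.2%, and between 5 and 10 FPKM 4 of 46 (8.70%) against 17.5%. Between 10 and 20 FPKM it was 4 of 33 (12.1%) against 24.1%, and from 20 FPKM up 2 of 13 (15.4%) against 30.98%. Precision was alike: the median SE of a log2 change was 0.09 for Zfp and 0.10 for other coding genes in the lowest band and 0.04 and 0.05 in the highest. The SD of the changes was smaller among Zfp genes in each band, 0.104 against 0.195 in the lowest and 0.110 against 0.167 in the highest. Among the better expressed Zfp genes more changes were below 0 than above. From 10 to 20 FPKM 26 of 33 changes were below 0, with a median of -0.06, against a median of -0.02 for the other coding genes of that band. The share above 0 was 21.2% for Zfp genes and 42.8% for other coding genes. With median-of-ratios scaling 22 of 33 were below 0 and the median was -0.04. From 20 FPKM up 8 of 13 were below 0, with a median of -0.08. The share above 0 in that band was 38.5% for Zfp genes and 42.9% for other coding genes. From 1 to 2 FPKM, by contrast, 25 of 42 (59.5%) were above 0, with a median of 0.04. Other coding genes went the same way there, with 52.4% above 0 and a median of 0.01. These are descriptions without a test.

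**Figure D2:**
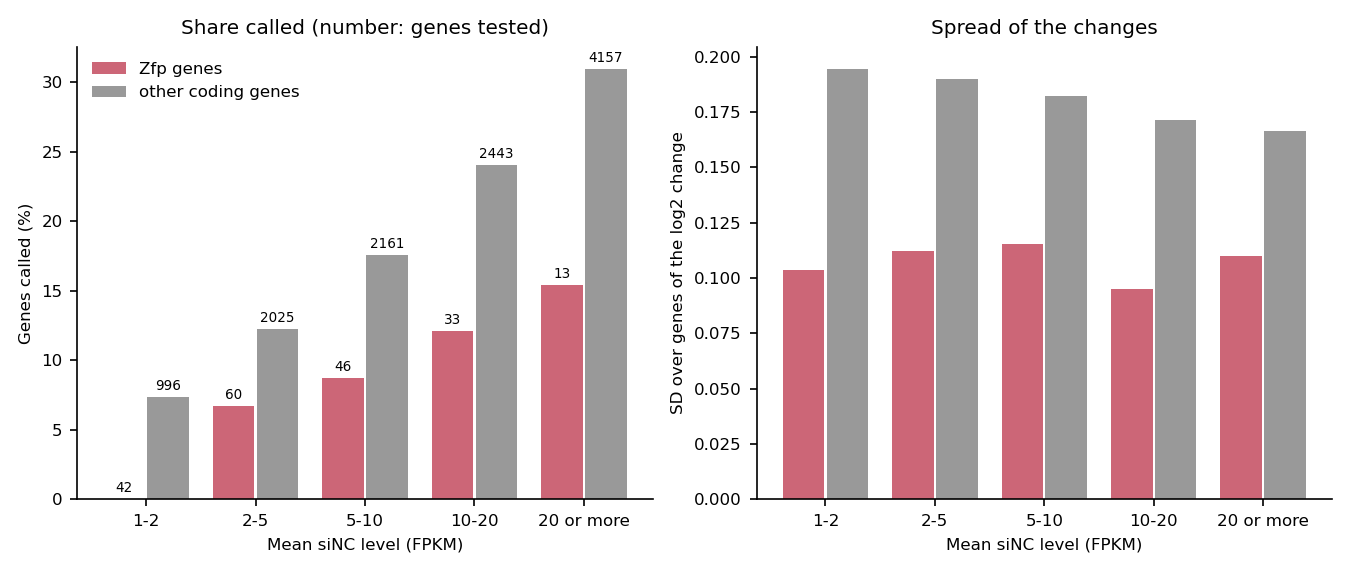
Left, percent of genes called (limma adjusted p under 0.05) by mean siNC level in FPKM, with the number of genes tested above each bar; right, SD over genes of the log2 change on the log2(FPKM + 1) scale. Zfp genes (red) are below other coding genes (grey) in all 5 bands of both panels, with 0 of 42 called in the lowest band.

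Of the Zfp genes called lower, Zfp498 and Zfp672 stayed called in every alternative run, including each library left out. Zfp498, whose promoter is shown above, encodes a protein with a SCAN domain (ENSRNOG00000042213, chromosome 12, 11774788 to 11785493, minus strand, as the table lists it). It stood at 8.84, 9.37, 9.37 and 8.92 FPKM in siNC and at 7.29, 7.54, 8.41 and 6.98 FPKM in siECHS1. All siECHS1 libraries were below all siNC libraries, and the level fell to 82.8% of control (9.12 ± 0.286 to 7.56 ± 0.611 FPKM, SD, n = 4; log2 change -0.24, SE 0.06, limma adjusted p = 0.0151). Zfp672, a C2H2 protein (ENSRNOG00000002713, chromosome 10, 43752700 to 43760930, minus strand), stood at 9.10, 10.5, 9.58 and 9.45 FPKM in siNC and at 7.58, 8.28, 8.22 and 7.84 FPKM in siECHS1. The groups did not overlap either, and it fell to 82.7% of control (log2 change -0.24, SE 0.05, limma adjusted p = 0.0104).

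Zfp496, Zfp592 and Zfp346 encode proteins with known partners or ligands. Zfp496 (Nizp1) carries a SCAN domain and binds the histone methyltransferase Nsd1. It stood at 22.1, 23.2, 22.8 and 23.4 FPKM in siNC and at 20.8, 20.2, 21.0 and 19.9 FPKM in siECHS1, with no overlap (89.5% of control, log2 change -0.15, SE 0.04, limma adjusted p = 0.0164). The call was lost without siECHS1 replicate 2 alone, at an adjusted p of 0.05004. Zfp592 is known in human cells as a partner of Zfp687 and the chromatin reader Zmynd8. It stood at 11.3, 10.8, 10.9 and 10.5 FPKM in siNC and at 9.58, 9.64, 9.75 and 9.23 FPKM in siECHS1, again without overlap (88.0% of control, log2 change -0.17, SE 0.04, limma adjusted p = 0.0213). Its call was lost without siECHS1 replicate 2 or siNC replicate 3, with an adjusted p of up to 0.0538. Its partner Zfp687 stood at 14.8 FPKM in siNC and 14.1 FPKM in siECHS1 and was not called (adjusted p = 0.341). Zfp346, or JAZ, binds double-stranded RNA in the nucleus. It stood at 10.5, 11.1, 11.002 and 10.7 FPKM in siNC and at 8.66, 9.46, 9.17 and 10.3 FPKM in siECHS1, where the highest siECHS1 library came close to the lowest siNC library (87.0% of control, log2 change -0.18, SE 0.06, limma adjusted p = 0.0396). Without a library it remained called only when siECHS1 replicate 4 or siNC replicate 1 was left out, and the adjusted p reached 0.104.

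The other called falls were Zfp637, Zfp956, Zfp41 and Zfp710. Zfp637, a C2H2 protein and the most abundant of the called Zfp genes, stood at 29.2, 30.1, 30.2 and 32.9 FPKM in siNC and at 26.7, 28.3, 27.1 and 26.9 FPKM in siECHS1 (89.1% of control, log2 change -0.16, SE 0.04, limma adjusted p = 0.0242). The groups did not overlap, and the call was lost without siECHS1 replicate 1 or 3 or siNC replicate 3 or 4. Zfp956 stood at 5.10, 5.08, 4.44 and 4.79 FPKM in siNC and at 4.04, 4.11, 4.21 and 3.78 FPKM in siECHS1 (83.1%, log2 change -0.22, SE 0.06, limma adjusted p = 0.0310). Zfp41 stood at 4.67, 4.85, 4.15 and 4.00 FPKM in siNC and at 3.50, 3.796, 3.77 and 3.54 FPKM in siECHS1 (82.7%, log2 change -0.22, SE 0.07, limma adjusted p = 0.0475). Neither overlapped between groups. With a library left out, Zfp956 remained called only without siECHS1 replicate 3 or siNC replicate 3 and Zfp41 only without siNC replicate 4, and adjusted p-values reached 0.0849 and 0.127.

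Zfp710 was called lower, and its position takes in the row named Echs1. Another row with the same protein match, LOC100911186, lies elsewhere on chromosome 1 and held more reads, 690 in siNC and 363 in siECHS1. Zfp710 is named here after its values were seen. In the table's coordinates Zfp710 (chromosome 1, 141767940 to 141870325, plus strand) contains the whole row named Echs1 (141821916 to 141830764, plus strand). It also contains the row named Fuom (141832774 to 141836250, plus strand) and overlaps the end of Idh2 on the other strand. It stood at 9.34, 10.2, 10.3 and 11.3 FPKM in siNC and at 8.83, 8.91, 9.35 and 8.52 FPKM in siECHS1. The highest siECHS1 library lay above the lowest siNC library, so the groups overlapped (86.5% of control, log2 change -0.19, SE 0.06, limma adjusted p = 0.0479). In recovered reads Zfp710 held 1940 reads over the siNC libraries and 1727 over the siECHS1 libraries, a difference of -213, while the Echs1 row held 138 and 55, a difference of -83. The sources used here do not give how reads in overlapping rows were assigned. The call was lost under 7 of the 8 omissions of a library, all but that of siNC replicate 1, with an adjusted p of up to 0.116. In all, 20 of the 194 tested Zfp genes overlap another row of the table, and reads of such pairs may be shared.

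Zfp281 and Zfp148, closely related C2H2 proteins that bind GC-rich DNA and act as repressors or activators by promoter, were both called higher. Zfp281 (ENSRNOG00000058643, chromosome 13, 53506925 to 53534353, plus strand), whose promoter is shown above, stood at 4.54, 4.12, 4.37 and 3.70 FPKM in siNC and at 5.79, 5.07, 4.94 and 5.13 FPKM in siECHS1. Every siECHS1 library was above every siNC library, a 1.25-fold rise (4.18 ± 0.369 to 5.23 ± 0.379 FPKM, SD, n = 4; log2 change 0.27, SE 0.07, limma adjusted p = 0.0236). The call was lost without siECHS1 replicate 1, siNC replicate 2 or siNC replicate 4, with an adjusted p of up to 0.0670. Zfp148 stood at 8.59, 7.30, 7.90 and 7.55 FPKM in siNC and at 9.53, 9.26, 9.51 and 8.33 FPKM in siECHS1. Its groups overlapped, since siECHS1 replicate 4 lay below siNC replicate 1 (1.17-fold, log2 change 0.20, SE 0.06, limma adjusted p = 0.0428). With a library left out it remained called only when one of those 2 libraries was the one omitted, and the adjusted p reached 0.111.

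Zfp330, Zfp365 and Zfp511 were the other genes called higher, none of which the table assigns to a C2H2, KRAB or SCAN class. Zfp330 encodes NOA36, a nucleolar autoantigen. It stood at 14.5, 13.2, 14.1 and 13.8 FPKM in siNC and at 15.7, 14.99, 15.1 and 16.0 FPKM in siECHS1 (1.11-fold, log2 change 0.15, SE 0.04, limma adjusted p = 0.0379). The groups did not overlap, but the call remained under only 1 of 8 omissions of a library, that of siNC replicate 1. Zfp365 encodes a centrosomal protein that binds Disc1. It stood at 4.14, 3.62, 3.33 and 3.72 FPKM in siNC and at 4.75, 4.58, 4.36 and 4.41 FPKM in siECHS1, without overlap (1.22-fold, log2 change 0.24, SE 0.07, limma adjusted p = 0.0308). It remained called without siECHS1 replicate 3 or 4 or siNC replicate 1, and the adjusted p reached 0.0831 in the others. Zfp511 stood at 7.96, 8.36, 8.31 and 7.46 FPKM in siNC and at 9.51, 9.08, 8.67 and 11.1 FPKM in siECHS1. No siECHS1 library overlapped the controls, and replicate 4 was the highest (1.19-fold, log2 change 0.23, SE 0.07, limma adjusted p = 0.0478). It remained called only without siECHS1 replicate 3, with an adjusted p of up to 0.1201. Zfp511 ends 206527 bases before LOC100911186 on chromosome 1, a row with the same protein match as Echs1 that was at 51.1% of control. Some calls also ended under other settings: those of Zfp637, Zfp346, Zfp41 and Zfp710 with median-of-ratios scaling, of Zfp346 and Zfp710 with quantile normalization, and of Zfp511 and Zfp956 with voom. Without a filter on low values, where more rows share the adjustment, only Zfp498, Zfp672, Zfp496, Zfp592, Zfp637 and Zfp330 were called.

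**Figure D3:**
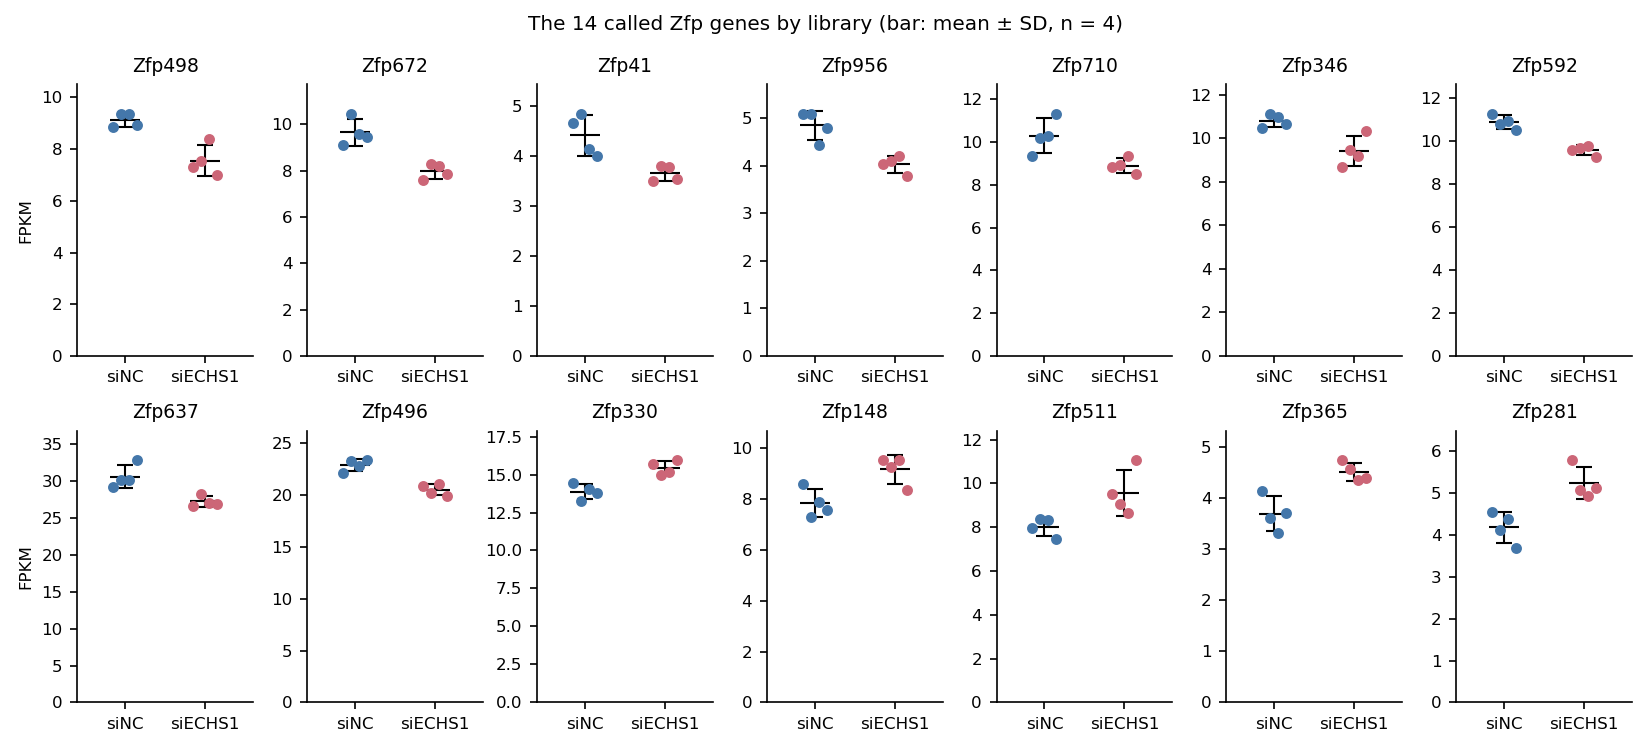
FPKM of the 14 called Zfp genes in each library, siNC in blue and siECHS1 in red, with bars for the mean ± SD of 4 libraries; each axis starts at 0. The groups overlap in Zfp710 and Zfp148 and are apart in the other 12, by margins that are small beside the levels themselves.

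Among mRNA decay factors, the 3 CCCH genes Zfp36l1, Zfp36 and Zfp36l2 did not pass the test. Zfp36l1, the most abundant Zfp gene, stood at 90.1, 82.1, 86.9 and 79.5 FPKM in siNC and at 97.8, 93.4, 86.2 and 96.2 FPKM in siECHS1. The groups overlapped, because siECHS1 replicate 3 lay below siNC replicates 1 and 3 (84.7 ± 4.72 and 93.4 ± 5.14 FPKM, SD, n = 4; log2 change 0.14, SE 0.05, limma adjusted p = 0.0742). The adjusted p was 0.0404 with median-of-ratios scaling, 0.0434 with voom on recovered reads, 0.0322 without siECHS1 replicate 3 and 0.0413 without siNC replicate 1, and between 0.0602 and 0.180 in the other alternatives. Zfp36, tristetraprolin, stood at 39.8, 40.01, 39.9 and 39.5 FPKM in siNC and at 35.7, 36.99, 37.8 and 39.1 FPKM in siECHS1. Its siNC libraries had an SD of 0.225 FPKM and all 4 siECHS1 libraries were below them, but the adjusted p by limma was 0.108 (log2 change -0.09, SE 0.04), or 0.0477 without siECHS1 replicate 4. Zfp36l2 was far lower, at 2.02 ± 0.287 FPKM in siNC and 2.06 ± 0.123 FPKM in siECHS1 (SD, n = 4; adjusted p = 0.877). A list of mRNA decay machinery held CCR4-NOT, deadenylation and decapping genes, Xrn1 and subunits of the RNA exosome. Of its 21 tested genes, 1 was called higher and 2 lower (14.3%), beside the 21.0% of all rows. Pan3 was the one called higher (1.25-fold), and its catalytic partner Pan2 (from 11.01 ± 0.329 to 8.69 ± 0.847 FPKM, log2 change -0.31, adjusted p = 0.00616 by limma) and the decapping cofactor Dcp1b (log2 change -0.25) were called lower. The scaffold Cnot1 stood at 27.3 and 28.0 FPKM. Of 17 tested mRNAs known to be bound by Zfp36 proteins, 4 were called higher and 0 lower (23.5%), beside 21.0% of all rows called in either direction and 8.83% called higher. Their median log2 change was 0.07. The 4 were Il6 (2.22 ± 0.553 to 3.64 ± 0.449 FPKM), Vegfa (37.3 ± 5.41 to 48.1 ± 0.848 FPKM), Ccnd1 (63.8 ± 2.02 to 78.4 ± 2.56 FPKM) and Ccl2 (191 ± 9.59 to 212 ± 5.13 FPKM). Among the 13 that were not called were Fos, Myc, Dusp1 and Ptgs2. Of 5 listed mRNAs under the level filter, Cxcl2 was at 1.11 ± 0.0693 FPKM in siNC and 0.714 ± 0.0773 FPKM in siECHS1 without overlap (SD, n = 4). The others were lower still and overlapped between groups. Csf2 (0.816 ± 0.297 and 0.412 ± 0.126 FPKM) and Il1b (0.345 and 0.251 FPKM) were lower in siECHS1. Tnf (0.189 and 0.348 FPKM) and Il23a (0.0996 and 0.235 FPKM) were higher.

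Besides Zfp637 and the CCCH genes, the 10 most abundant Zfp genes included 7 others, none of which was called. Zfp207 (BuGZ), a microtubule-binding protein that stabilises Bub3, stood at 48.5 to 50.9 FPKM in siNC and 49.4 to 50.3 FPKM in siECHS1 (log2 change 0.01, SE 0.03). Zfp598, the ubiquitin ligase that marks collided ribosomes, stood at 23.8 to 26.7 FPKM and 25.8 to 26.6 FPKM (log2 change 0.04, SE 0.04). Both pairs of groups overlapped. Zfp706, which in mouse embryonic stem cells acts in the exit from self-renewal, stood at 40.7 to 45.1 FPKM in siNC and 39.2 to 43.1 FPKM in siECHS1 (adjusted p = 0.205 by limma). Zfp385a, an RNA-binding protein that works with p53, stood at 24.0 to 25.2 FPKM and 23.8 to 29.0 FPKM (adjusted p = 0.473). Zfp771 differed more between replicates than between groups, with 56.6, 36.7, 61.6 and 59.1 FPKM in siNC and 54.0, 62.5, 54.6 and 69.8 FPKM in siECHS1 (adjusted p = 0.407). Zfp414 (27.5 ± 1.23 and 25.5 ± 1.81 FPKM, SD, n = 4) and Zfp580 (26.9 ± 2.86 and 25.01 ± 2.96 FPKM, SD, n = 4) overlapped between groups and were not called. A listed set of 14 Zfp genes with roles on RNA, ribosomes or ubiquitin, which holds Zfp207, Zfp598, Zfp706 and Zfp385a and genes down to Zfp638 at 3.17 FPKM, had 1 called higher (Zfp330) and 1 lower (Zfp346), 14.3% beside the 21.0% of all rows. Its median log2 change was 0.01. Of 15 tested genes of ribosome-associated quality control, Map3k20, the kinase that senses stalled ribosomes, was called higher and Edf1, which binds collided ribosomes, was called lower (225 ± 11.9 to 198 ± 7.499 FPKM, SD, n = 4). These 2 calls are 13.3% of the list, below the 21.0% of all rows.

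No Zfp gene whose best Pfam match is the KRAB domain was called. There were 49 such genes, of which 45 were tested, and they were of low abundance, with a median of 2.66 FPKM in siNC. At such levels calls were fewer among other coding genes too, 7.33% from 1 to 2 FPKM and 12.2% from 2 to 5 FPKM. Of the changes of the KRAB genes 27 were above 0 and 18 below, with a median of 0.03, and 36 of 45 stayed within 1.1-fold. With the other scalings 28 or 29 were above 0. The nearest to the threshold were Zfp282 (12.4 ± 0.721 to 10.9 ± 0.587 FPKM, adjusted p = 0.0504), Zfp688 (18.9 ± 1.34 to 16.7 ± 0.678 FPKM, adjusted p = 0.0549) and Zfp354c (1.65 ± 0.0729 to 2.09 ± 0.164 FPKM, adjusted p = 0.0572), all by limma with n = 4 per group and chosen after their values were seen. Zfp354c was called higher with median-of-ratios scaling (adjusted p = 0.0476), quantile normalization (0.0494) and voom (0.0107), and Zfp282 was called lower with voom (0.0239). Zfp57, which keeps the methylation of imprinted loci in mouse, stood at 5.72 ± 0.243 FPKM in siNC and 6.02 ± 0.413 FPKM in siECHS1 (adjusted p = 0.518). Zfp445, which shares that task, stood at 5.14 ± 0.647 and 5.08 ± 0.788 FPKM (adjusted p = 0.937). The groups overlapped for Zfp57 and for Zfp445. Of the 45 tested KRAB genes, 1 had every siECHS1 library above every siNC library and 1 had every one below. The same held for 10.3% and 14.9% of all rows. Among the factors through which KRAB proteins silence chromatin, 24 genes were tested and 1 was called higher and 2 lower (12.5%, below the 21.0% of all rows), with a median log2 change of -0.06. Trim28, the corepressor itself, stood at 111 ± 4.19 FPKM in siNC and 102 ± 3.95 FPKM in siECHS1 (log2 change -0.12, SE 0.04, adjusted p = 0.0572 by limma), and Setdb1 at 11.1 and 10.3 FPKM. Mta2, a subunit of the NuRD deacetylase complex, fell from 45.5 ± 0.667 to 37.6 ± 0.690 FPKM. The histone methyltransferase Ehmt2 (G9a) fell from 39.1 ± 1.32 to 35.6 ± 0.804 FPKM, and the deacetylase Hdac2 rose from 48.9 ± 6.12 to 57.8 ± 2.05 FPKM.

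The calls were spread over the other domain classes. Of 88 genes with a C2H2 match and none of the added domains as best match, 2 were called higher and 5 lower. That is 7.95%, beside the 21.0% of all rows, and the median log2 change was -0.02. With median-of-ratios scaling 2 were called higher and 2 lower, and the median was 0.00029. Of 16 with a SCAN domain, 0 were called higher and 2 lower (Zfp498 and Zfp496). The share called lower, 12.5%, is near the 12.2% of all rows. The DUF3669 class of 4 held 1 call (Zfp956, lower), the zf-met class of 5 held 1 (Zfp346, lower), and the BTB class of 3 held 0. In classes this small a single call makes 25% (DUF3669) or 20% (zf-met). The 30 genes with other or no matches held 3 calls, all higher (Zfp330, Zfp365 and Zfp511). Their share called higher, 10%, is near the 8.83% of all rows. Each row has 1 best match in the table, so a gene with a KRAB or SCAN domain may be listed by its fingers. A gene with a KRAB domain may also be listed by another domain, such as SCAN or DUF3669. The KRAB class is therefore not the full set of genes with that domain.

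**Figure D4:**
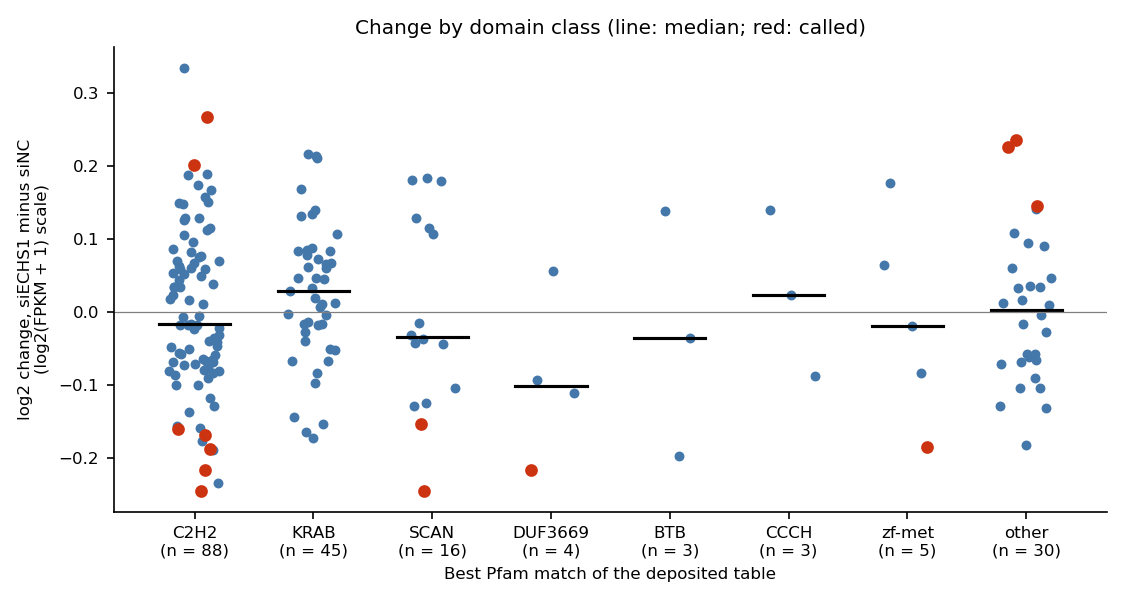
Log2 change (siECHS1 minus siNC, log2(FPKM + 1) scale) of each tested Zfp gene by the best Pfam match of the deposited table, with the median of each class as a line and called genes in red. The 45 genes with KRAB as best match hold 0 called genes, and every class spans 0.

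Among 24 Zfp genes described as transcription factors of development and signalling, 2 were called higher (Zfp281 and Zfp148) and 1 lower (Zfp637). These calls are 12.5% of the set, beside the 21.0% of all rows, and its median log2 change was 0.0029. Zfp219, a cofactor of Sox9 in mouse cartilage, was at 16.4, 16.0, 15.7 and 17.4 FPKM in siNC and at 14.5, 14.3, 15.2 and 15.1 FPKM in siECHS1. All siECHS1 libraries were lower, at an adjusted p of 0.0529 by limma (log2 change -0.14, SE 0.04). Zfp521, a factor of immature cells that opposes differentiation, was at 2.95, 2.86, 2.62 and 2.81 FPKM in siNC and at 3.47, 3.14, 3.41 and 3.10 FPKM in siECHS1. All siECHS1 libraries were higher, at an adjusted p of 0.0908 (log2 change 0.17, SE 0.06), and voom called it (adjusted p = 0.0264). Zfp423, its relative, was at 2.89 ± 0.118 FPKM and 2.72 ± 0.155 FPKM (adjusted p = 0.517). Zfp143, an activator of small nuclear RNA and many mRNA promoters, was at 3.00 ± 0.0748 FPKM and 3.25 ± 0.293 FPKM (adjusted p = 0.440). For zinc finger genes under other names, 1 of 17 Sp and Kruppel-like factors was called (Klf4, higher, 18.5 ± 0.650 to 21.1 ± 1.096 FPKM). Of 12 SCAN genes named otherwise 1 was called higher, Zkscan5 (5.28 ± 0.185 to 7.57 ± 0.355 FPKM, 1.43-fold). Of 33 genes named Zbtb, a set chosen by symbol and not by domain, 0 were called higher and 2 lower (6.06%, Zbtb42 and Zbtb22). Of 4 genes named Znf 1 was called lower, Znf768 (19.8 ± 0.438 to 15.3 ± 0.658 FPKM). Among proteins with other zinc-binding folds, 1 of 60 RING finger genes was called higher and 6 lower (11.7%), and of 18 PHD finger genes 1 was called higher and 3 lower (22.2%). Beside the 21.0% of all rows called, the PHD share is near the background and the shares of the Sp and Kruppel-like (5.88%), SCAN (8.33%), Zbtb and RING genes are below it. The Sp and Kruppel-like and the SCAN shares rest on 1 call each. The median siNC level was 3.41 FPKM for the tested SCAN genes and 4.57 FPKM for the Zbtb genes. From 2 to 5 FPKM 12.2% of other coding genes were called, a background nearer in level to these lists.

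Zfp genes often lie side by side, and 45 of the 194 tested stood in 8 groups of at least 4 with gaps of no more than 500 kb, a rule set after the positions were seen. In 3 of these groups every change had the same sign. On chromosome 1, 72338877 to 72468738, all 5 (Zfp580, Zfp865, Zfp524, Zfp579 and Zfp628) were below 0, with a median of -0.07. On chromosome 7, 15024693 to 15425802, all 5 (Zfp871, Zfp799, Zfp870, Zfp952 and Zfp563) were above 0, with a median of 0.08. On chromosome 8, 21448618 to 21617736, all 4 (Zfp26, Zfp426, Zfp266 and Zfp846, each a KRAB gene) were above 0, with a median of 0.06. None of these 14 genes was called, their adjusted p-values were 0.234 or higher, and the signs were the same with median-of-ratios scaling, quantile normalization and voom. The other 5 groups held both signs, among them the largest, 9 genes on chromosome 4 (77519028 to 78258545), with Zfp956 lower and 4 of 9 changes above 0. Zfp41 was the only call in the group of 4 on chromosome 7 (116653664 to 117032863). Neighbouring rows can share reads: both Zfp128 rows and Zfp655 have a best protein match in common with another row, and Zfp128, Zfp446 and Zfp617 each name 2 rows, so their separate values are uncertain.

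**Figure D5:**
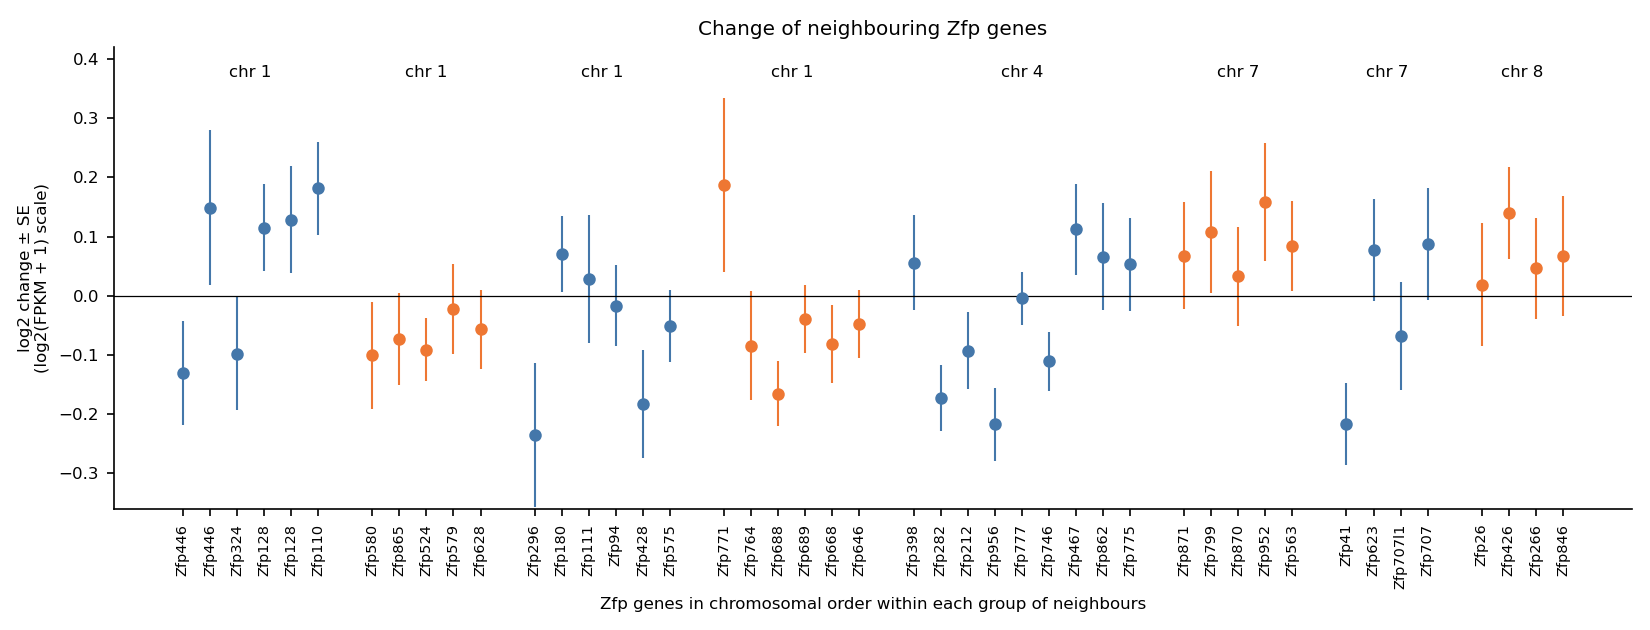
Log2 change ± SE (log2(FPKM + 1) scale) of the 45 Zfp genes in 8 groups of neighbours, in the order in which they lie within each group, with the chromosome above and colours alternating between groups. Changes keep one sign in the second, sixth and eighth group, and most bars reach to or near 0.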

How the data were processed

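RNA from 8 libraries was analysed, 4 per group. The authors deposited FPKM values, 1 row per rat gene, with coordinates and best protein and Pfam matches. Per the labels' protocols, libraries were made with Illumina's TruSeq RNA kit from 1 µg of total RNA. The submitters' processing notes name Bowtie 0.12.2 and, with no role for either, the builds Rnor_6.0 and mm8. The sources used here do not give the counting tool, annotation release, strand setting or treatment of multiply matching reads, and coordinates are as the table lists them. FPKM steps gave whole reads for 100% of values within 0.01 of a read, with 99.9% of each library in listed genes. These reads served for depth and for voom, 1 of the alternatives.

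Values were taken as log2(FPKM + 1), and rows averaging 1 FPKM or more over 8 libraries were tested with limma 3.58.1 in R 4.3.3 (variance trend, two-sided, Benjamini-Hochberg over 12616 rows, threshold 0.05). Fold changes and percentages of control are ratios of group means in FPKM; log2 changes understate low genes. Tables and plots used pandas 2.3.3 and matplotlib 3.10.9 in Python 3.11.15. The code was checked on simulated data. Other coding genes are rows annotated as protein coding, with at least 1 FPKM in siNC and no Zfp symbol. Every pair of libraries within a group differed by more than counting noise (chi-square per degree of freedom 2.48 to 5.72).

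Members and gene lists were chosen with earlier results of these data known. Named are the 10 most abundant Zfp genes, called genes whose groups do not overlap (up to 10 per direction), the CCCH genes, called genes with a listed role, genes at the threshold and, per list, up to 3 calls per direction; other genes named were chosen after their values were seen or belong to a described group. Alternatives were pseudocounts 0.1 and 0.5, filters (none, siNC mean of 1 FPKM, mean of 5 FPKM), members chosen on siECHS1, median-of-ratios scaling, quantile normalization, voom, a replicate block and each library left out.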

Additional observations from a re-analysis of the deposited data

Results flagged for a closer look

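Gaps between one library and the other 3 of its group were examined in 64 groups of 4 values (the named genes, the summed level and the share of reads). In 4 of them the gap took more of the group's range than Dixon's 95% critical value allows, where chance gives about 1 in 20. Zfp207 was at 49.4 FPKM in siECHS1 replicate 3 against 50.2 to 50.3 FPKM in the others. Zfp385a was at 24.0 FPKM in siNC replicate 2 against 25.02 to 25.2 FPKM. Zfp382, just under the level threshold, was at 1.028 FPKM in siECHS1 replicate 1 against 0.877 to 0.900 FPKM. The summed level of the Zfp genes was 1487 FPKM in siECHS1 replicate 3 against 1508 to 1511 FPKM in the other siECHS1 libraries.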

How the results depend on the processing

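The count of other coding genes called stayed within 1.5 times of 2576 in every alternative run (1839 to 2580 with a library left out), and the share of Zfp genes called (2.04% to 13.98%) was below theirs (15.6% to 27.7%) in each. Calls of single Zfp genes depended more on the setting. With a filter of 5 FPKM, 3 were called higher and the median log2 change was -0.038; without a filter 1 was called higher and 5 lower; with median-of-ratios scaling 5 were called lower. Fewer genes entered the fit with the stricter filter, and more without one. With a library left out the calls were 0 to 8 higher and 3 to 9 lower, and the median change lay between -0.01 and 0.02. Zfp36l2 ranged from -0.034 (without siNC replicate 2) to 0.062 with a library left out, and was -0.000779 without siECHS1 replicate 1; the cause was not tested. For the genes that the naming rule selected, 849 values kept direction and side of the threshold, 173 lost the call, 5 gained it (Zfp36l1 and Zfp36) and 2 turned. Zfp354c, Zfp282, Zfp521 and Zfp532, which gained calls under another scaling or voom, are not in that count. Depth limits the low genes most, down to 14 reads in a library.

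The replicate numbers were not read as pairs: deviations of same-numbered libraries correlated at 0.17, -0.05, 0.01 and 0.07, and not every library correlated best with its own number. The second principal component (13.7% of the variance) did rank both groups in the same order of number, a hint from the data and not from the design. With the replicate block, 5 Zfp genes were called higher and 8 lower and 2859 other coding genes were called; Zfp511, Zfp41 and Zfp710 were not called.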
